A study of Mus musculus with 16 samples.

Results

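The 10 genes described here, *Lpl*, *Gpihbp1*, *Lmf1*, *Angptl4*, *Cd36*, *Fabp3*, *Fabp4*, *Fabp5*, *Slc27a1* and *Slc27a2*, encode proteins that release fatty acids from plasma triglycerides and carry them into and through the cell. They were taken by name from the 49066 gene symbols in the brown adipose tissue (BAT) data. The rule was their role and no threshold on a measured value, but the list was drawn up with earlier results of these data known. None of the 10 passed the threshold for a difference between KO and WT mice in either sex. Over all genes tested, 0.00821% passed in males and 0% in females. WT and KO libraries did not overlap for *Gpihbp1* in females, where it was higher in KO mice, against 4.89% of all genes. They did not overlap for *Slc27a2* in males either, where it was lower in KO mice, against 0.673% of all genes. WT and KO libraries overlapped in all other cases.

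Lipoprotein lipase (LPL) is made by adipocytes and muscle fibres, is folded in the endoplasmic reticulum with the help of LMF1, and is carried across the capillary wall and held on its luminal face by the endothelial protein GPIHBP1, where it cleaves the triglycerides of chylomicrons and VLDL. ANGPTL4 inactivates the enzyme. The fatty acids that are set free enter cells through CD36 and with the acyl-CoA synthetase activity of the fatty acid transport proteins SLC27A1 (FATP1) and SLC27A2 (FATP2), and in the cytosol they are bound by FABP3, FABP4 and FABP5. In BAT this route supplies fuel for thermogenesis.

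BAT from 16 mice on the C57BL6/J background was sequenced, with 4 WT and 4 KO mice of each sex. KO mice were *Gdf15* fl/fl and carried a transgenic Cre recombinase driven by the *Ucp1* promoter, so that *Gdf15*, which encodes the stress-induced cytokine GDF15, was deleted in thermogenic adipocytes. WT mice were *Gdf15* fl/fl as well but lacked the Cre, which means that the transgene and the loss of *Gdf15* cannot be told apart. All mice were 18 weeks old and had been fed a high-fat diet (HFD) for 12 weeks. The comparisons ask whether loss of GDF15 in thermogenic adipocytes altered these genes in each sex, and whether the 2 sexes differed.

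Values are TPM, a length-corrected share of the library's transcripts that adds up to 1000000. TPM hold no read number, so the depth behind a value is unknown. *Gdf15* was at 0.368 to 3.81 TPM in male WT and 0.0801 to 0.272 TPM in male KO libraries (p = 0.0286 by an exact permutation test, two-sided, with 4 against 4 libraries unable to give less), and at 0.0622 to 0.311 TPM in female WT and 0 in 3 of the 4 female KO libraries (p = 0.0571 by the same exact test). Mitochondrially encoded transcripts made up 34.5 to 59.8% of the TPM. Transcripts that could not be assigned to a gene took 17.7% of the TPM in female WT 4 and 0.333 to 0.48% in the other 15 libraries, and this library held the lowest value of *Lpl*, *Cd36*, *Fabp3*, *Fabp4* and *Fabp5* of all 16. All 12 brown adipocyte markers and all 13 endothelial markers had a mean of at least 1 TPM, as did 11 of the 14 macrophage markers, while 0 of the 10 lymphocyte markers did. The 13 skeletal muscle markers summed to 2.62 to 5867 TPM, so that the amount of muscle RNA varied widely between libraries within groups. In whole tissue, fewer cells of a type and less RNA per cell cannot be told apart.

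All 10 genes were well above the minimum of 1 TPM that was set for testing. *Fabp4* was the highest at 6328 ± 1009 TPM (SD over all 16 libraries), and it ranked 18th of all genes tested. *Fabp3* followed at 1286 ± 282, *Cd36* at 710 ± 106, *Lpl* at 643 ± 169, *Angptl4* at 165 ± 37.5, *Gpihbp1* at 128 ± 48.1, *Slc27a1* at 98.4 ± 39.6, *Slc27a2* at 70.2 ± 40.7, *Fabp5* at 59.5 ± 19.6 and *Lmf1* at 28.3 ± 3.62 TPM. The mean of *Fabp4* was 4.92 times that of *Fabp3* and 106 times that of *Fabp5*, and the mean of *Lpl* was 5.04 times that of *Gpihbp1*. Within the libraries, the steps from *Fabp4* to *Fabp3*, from *Fabp3* to *Cd36*, from *Lpl* to *Angptl4* and from *Fabp5* to *Lmf1* were kept in 16 of 16. The neighbours *Cd36* and *Lpl* kept their order in 12 of 16 libraries, *Gpihbp1* and *Slc27a1* in 11 of 16, and *Slc27a2* and *Fabp5* in 9 of 16. The log2 ratios within a library were 0.17 ± 0.34, 0.37 ± 0.43 and 0.10 ± 0.94 (SD over 16 libraries), in that order. Whether the levels within these pairs differ was not tested. *Slc27a2* was the most variable of the 10, with a coefficient of variation of 58.1% and a highest value 4.89 times the lowest, and *Lmf1* the least, with 12.8% and 1.54 times.

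**Figure D1:**
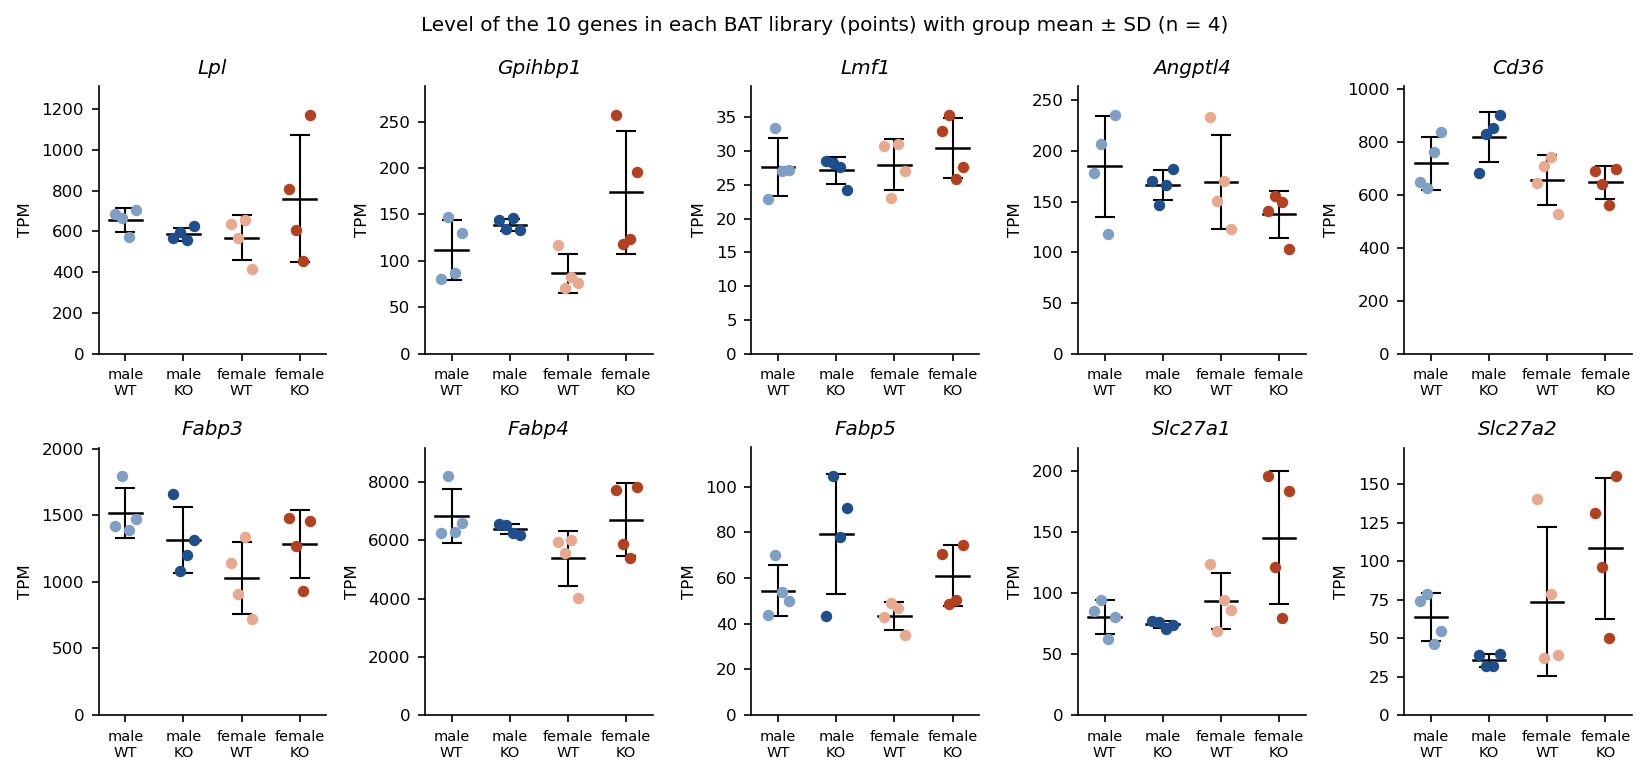
TPM (vertical axes, from 0) of the 10 genes in each of the 16 BAT libraries, by sex and genotype. Points are mice, horizontal lines are group means and bars are the SD (n = 4). The male WT and KO points of *Slc27a2* and the female WT and KO points of *Gpihbp1* do not overlap. All other pairs of WT and KO groups do. Over all genes, 0.673% were lower without overlap in male KO libraries and 4.89% higher without overlap in female KO libraries.

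KO and WT mice were compared with limma on log2(TPM + 0.5), with Benjamini-Hochberg adjustment across every gene tested. In males, 0 of the 10 genes passed an adjusted p of 0.05, against 0.00821% of 12176 genes tested. At an unadjusted p of 0.05 the count was 1 of 10, against 18.7% of all genes. In females, 0 of the 10 passed after adjustment, as did 0% of 12141 genes, and 2 of 10 had an unadjusted p under 0.05, against 17.1%. The median log2 difference, KO minus WT, over the 10 genes was -0.09 in males and 0.35 in females, beside 0.16 and 0.10 over all genes tested. The median over the 12 brown adipocyte markers was -0.04 in males, with 4 of 12 higher in KO mice, and 0.28 in females, with 9 of 12 higher, and its part in the values of the 10 genes was not tested. Under median-of-ratios scaling those medians of all genes became 0.00 and 0.01. The split of all genes with an unadjusted p under 0.05 moved with it, from 2150 higher and 130 lower to 1011 and 876 in males, and from 1413 and 662 to 1289 and 1162 in females. In males 3 of the 10 genes had a higher mean log2 value in KO mice and 7 a lower one, and in females 8 a higher and 2 a lower one. Without female WT 4, the library with many unassigned transcripts, the female log2 difference was 0.21 for *Lpl*, 0.90 for *Gpihbp1*, 0.37 for *Fabp5*, 0.55 for *Slc27a1* and 0.42 for *Slc27a2*.

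Groups that do not overlap were counted as well. In males, 1 of the 10 genes (*Slc27a2*) was lower in every KO library than in every WT library, against 0.673% of all genes, and none was higher throughout, against 9.55%. In females, 1 gene (*Gpihbp1*) was higher in every KO library, against 4.89%, and none was lower throughout, against 3.19%. When the KO effect in females was set against that in males over all 16 libraries, 0 of the 10 genes passed the adjusted threshold, against 0% of 12210 genes, and 1 had an unadjusted p under 0.05, against 14.2%. For the mean KO effect over both sexes, 0 of 10 passed, against 2.93%, and 2 had an unadjusted p under 0.05, against 24%. With median-of-ratios scaling the split of such genes over the whole table moved from 306 higher and 1429 lower to 1128 and 1135 for the contrast of the sexes, and from 2614 and 315 to 1417 and 1114 for the mean effect.

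**Figure D2:**
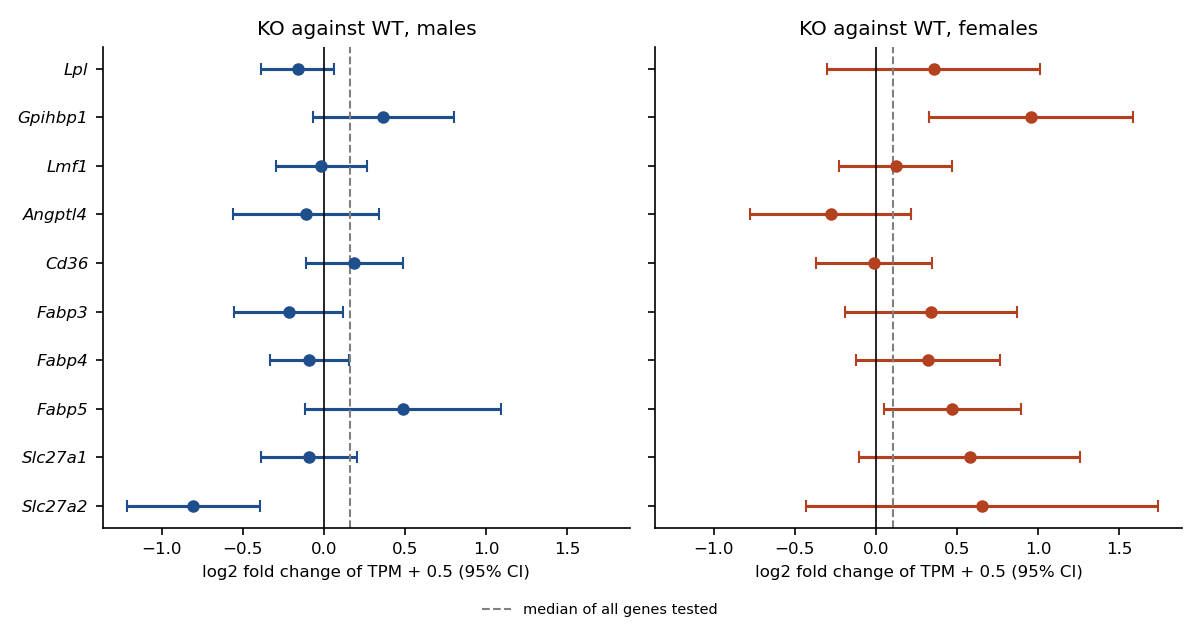
Log2 fold change, KO against WT, of TPM + 0.5 (horizontal axis) for the 10 genes (vertical axis) in males, left, and females, right. Points are limma estimates with their 95% confidence intervals, not adjusted for multiple testing, and the dashed line is the median of all genes tested (0.16 in males, 0.10 in females); the interval lies clear of 0 for *Slc27a2* in males and for *Gpihbp1* and *Fabp5* in females.

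*Lpl* (ENSMUSG00000015568, chromosome 8) encodes the lipase itself. In males, *Lpl* stood at 686, 666, 572 and 703 TPM in the WT libraries and at 566, 594, 556 and 627 TPM in the KO libraries. A pair of KO libraries lay below every WT library and the other pair inside the WT range. The log2 difference was -0.16 ± 0.10 (SE), with a 95% interval of -0.39 to 0.06 (limma, Benjamini-Hochberg adjusted p = 0.384). In females, *Lpl* stood at 635, 567, 658 and 414 TPM in WT and at 808, 607, 456 and 1173 TPM in KO libraries. A pair of KO libraries lay above every WT library and the lowest KO library lay below 3 of them, which gave a log2 difference of 0.35 ± 0.29 and an interval of -0.30 to 1.01 (limma, Benjamini-Hochberg adjusted p = 0.518). Without female KO 4 the female *Lpl* difference was 0.12, and with a covariate for the prefix of the library names (5, 8b, 9 or 10, whose meaning was not stated) it was -0.0019. Within the prefix 10 (1 WT and 1 KO library) it was 0.35 and within the prefix 8b (3 WT and 1 KO) -0.23. Without female KO 4 the mean KO effect over both sexes moved from 0.10 to -0.02 log2.

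The deposited values are per transcript, and *Lpl* was divided between 2 of its 5 annotated transcripts. The protein-coding Lpl-201 took 65.9 to 99.6% of the gene's TPM in a library, and Lpl-203, which GENCODE annotates as subject to nonsense-mediated decay, took 0.103 to 32.5%. In females, Lpl-201 was at 505, 556, 497 and 273 TPM in WT and at 805, 536, 452 and 1165 TPM in KO libraries. Lpl-203 was at 129, 11.5, 161 and 134 TPM in female WT and at 0.833, 70.3, 3.02 and 4.31 TPM in female KO libraries. The transcript was thus near 0 in 3 of the 4 female KO libraries and above 100 TPM in 3 of the 4 female WT libraries, and the groups overlapped. In males the order of the means was the other way. Lpl-203 was at 76.7 ± 93.8 TPM (SD, n = 4) in male WT and 131.9 ± 47.1 in male KO libraries. Male WT libraries fell apart into 7.85 and 7.30 TPM in replicates 1 and 2 and 85.4 and 206 TPM in replicates 3 and 4. The low pair carried the prefix 5, which no male KO library did. The high pair carried the prefix 9, as did male KO 2, 3 and 4, at 163, 155 and 148 TPM. These KO values lay between those of the high WT pair. Male KO 1, with the prefix 10, was at 61.9 TPM. The part of the prefix in the male order was not tested. These transcript shares are estimates by the authors' quantifier from reads that fit more than 1 transcript, and they were not tested.

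**Figure D3:**
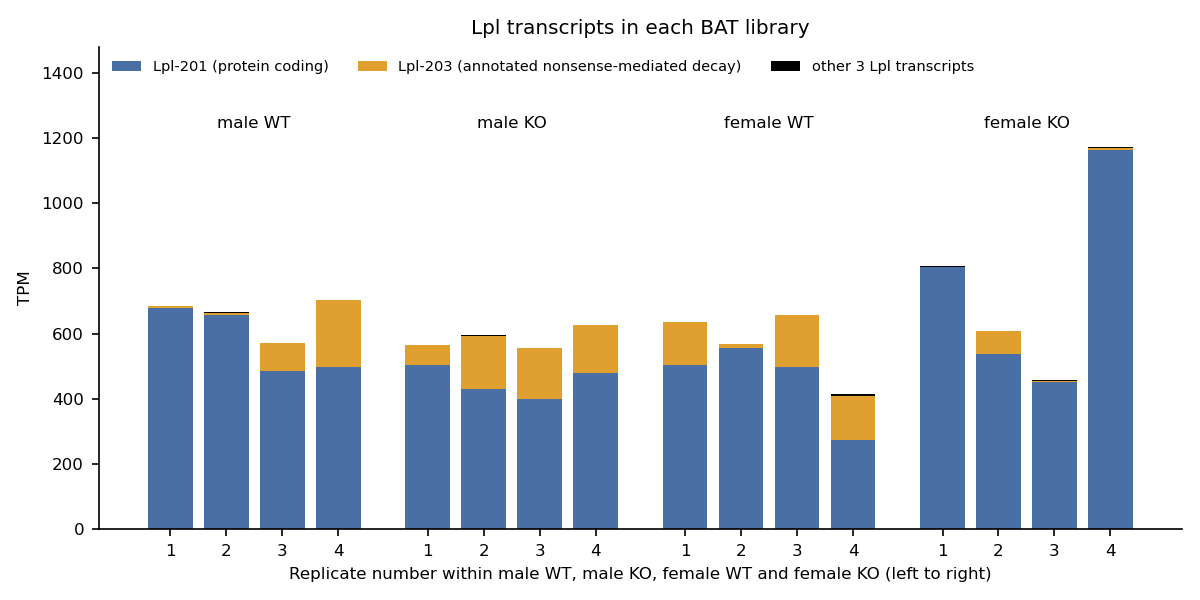
TPM of the *Lpl* transcripts (vertical axis) stacked for each library (horizontal axis, replicate 1 to 4 within each group). Blue is the protein-coding Lpl-201 and yellow Lpl-203; Lpl-203 ranges from 0.833 TPM in female KO 1 to 206 TPM in male WT 4 and is below 12 TPM in 6 of the 16 libraries.

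*Lmf1* (ENSMUSG00000002279, chromosome 17), the folding factor for the lipase, was level across the groups. Its means were 27.6 ± 4.31 TPM in male WT, 27.1 ± 1.98 in male KO, 27.9 ± 3.78 in female WT and 30.5 ± 4.45 in female KO mice (SD, n = 4). The log2 differences were -0.02 in males, with a 95% interval of -0.30 to 0.26, and 0.12 in females, with an interval of -0.23 to 0.47 (limma, Benjamini-Hochberg adjusted p = 0.948 and 0.673). The protein-coding Lmf1-202 took 63.1 ± 10.1% of its TPM.

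*Gpihbp1* (ENSMUSG00000022579, chromosome 15) encodes the anchor of the lipase on capillary endothelium, and for the mean KO effect over both sexes it had the lowest adjusted p of the 10 genes. In females, *Gpihbp1* stood at 117, 70.9, 82.4 and 75.7 TPM in WT libraries and at 258, 118, 123 and 196 TPM in KO libraries. Every female KO library was above every female WT library, although female KO 2 at 117.7 and female WT 1 at 117.3 TPM nearly met. The group means were 86.6 ± 20.99 and 173.8 ± 66.4 TPM (SD, n = 4), a ratio of 2.01, and the log2 difference was 0.95 ± 0.28 with an interval of 0.32 to 1.58 (limma, Benjamini-Hochberg adjusted p = 0.231). In males, *Gpihbp1* stood at 80.9, 147, 86.8 and 130.2 TPM in WT and at 143.7, 134, 145.7 and 133.1 TPM in KO libraries. The KO values were tightly grouped and the WT values fell into a low and a high pair, with male WT 2 above all KO libraries. The male log2 difference was 0.37 ± 0.19, with an interval of -0.07 to 0.80 (limma, Benjamini-Hochberg adjusted p = 0.320), and the difference between the sexes was 0.59 ± 0.36 (limma, Benjamini-Hochberg adjusted p = 0.470).

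Averaged over the sexes, *Gpihbp1* was 0.66 ± 0.18 log2 higher in KO mice (limma, Benjamini-Hochberg adjusted p = 0.0547). The call turned on the libraries and the scaling. It passed when male WT 2 was left out (0.73, adjusted p = 0.0268), and likewise without female WT 1 (adjusted p = 0.0407), female KO 2 (adjusted p = 0.0321) or female KO 3 (adjusted p = 0.0340), all by limma with Benjamini-Hochberg adjustment. It also passed when transcripts of the mitochondrial genome were left out before scaling (0.53, limma, Benjamini-Hochberg adjusted p = 0.0354), while with the prefix covariate it stood at 0.48 (adjusted p = 0.242). Within a prefix, KO libraries were higher by 0.37 log2 in males (prefix 9, 2 WT and 3 KO libraries). In females they were higher by 1.13 (prefix 10, 1 WT and 1 KO) and 0.69 (prefix 8b, 3 WT and 1 KO). Each female value thus rests on 1 KO library.

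*Gpihbp1* moved with the endothelial markers. All 13 of these had a higher estimate in KO mice in both sexes, with a median log2 difference of 0.41 in males and 0.75 in females. None of the 13 passed the adjusted threshold within a sex, and 3 passed, all higher, for the mean effect over both sexes, where 2.58% of all genes were called higher. Their summed TPM ran from 285 to 560 in male WT, 454 to 534 in male KO, 259 to 400 in female WT and 435 to 870 in female KO libraries, and none of the 13 was at 0 throughout. The ratio of *Gpihbp1* to that sum was 0.27 ± 0.02 in male WT, 0.28 ± 0.03 in male KO, 0.25 ± 0.05 in female WT and 0.28 ± 0.03 in female KO mice (SD, n = 4), and the groups overlapped. Over the 16 libraries, with the group means taken off, Spearman's rho between *Gpihbp1* and the sum was 0.83, and it was 0.88 with the sum of the 7 mural cell markers. Female KO 1 held the highest value of both measures. The part of endothelial content in the level of *Gpihbp1* was not tested beyond this ratio.

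**Figure D4:**
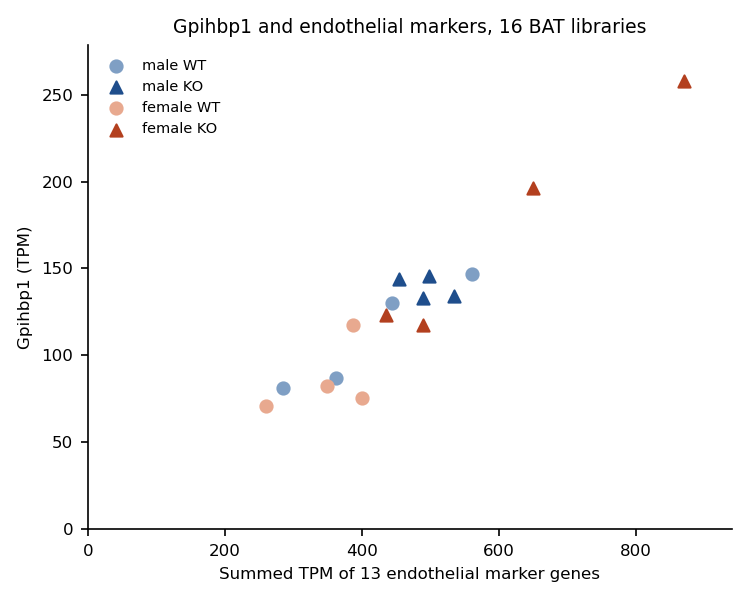
*Gpihbp1* (vertical axis, TPM) against the summed TPM of 13 endothelial marker genes (horizontal axis) in 16 BAT libraries. Circles are WT and triangles KO mice; the points of all 4 groups lie along 1 band, with a ratio between 0.189 and 0.316, and female KO 1 and female KO 4 lie at its upper end.

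*Angptl4* (ENSMUSG00000002289, chromosome 17), the inhibitor of the lipase, had a lower mean in KO mice of both sexes, within the spread of the replicates. In males, *Angptl4* was at 178, 207, 119 and 236 TPM in WT and at 171, 147, 166 and 182 TPM in KO libraries. In females, *Angptl4* was at 233, 151, 170 and 123 TPM in WT and at 141, 156, 150 and 104 TPM in KO libraries. All KO values lay within the WT range of their sex except that of female KO 4, which was below it. The log2 differences were -0.11, with an interval of -0.56 to 0.34, and -0.28, with an interval of -0.78 to 0.22 (limma, Benjamini-Hochberg adjusted p = 0.776 and 0.4998). Most of the TPM of *Angptl4*, 75.2 to 84.7% in a library, was assigned to Angptl4-202, which is annotated as subject to nonsense-mediated decay, and 8.05 ± 0.59% to the only transcript annotated as protein coding.

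*Cd36* (ENSMUSG00000002944, chromosome 5) encodes the fatty acid translocase, which adipocytes, endothelial cells and macrophages all express. In males, *Cd36* stood at 647, 627, 763 and 839 TPM in WT and at 683, 831, 853 and 903 TPM in KO libraries, so that 2 of 4 KO libraries were above all WT libraries. The log2 difference was 0.19 ± 0.13, with an interval of -0.11 to 0.49 (limma, Benjamini-Hochberg adjusted p = 0.446). In females, *Cd36* stood at 646, 708, 742 and 526 TPM in WT and at 689, 642, 562 and 698 TPM in KO libraries, and the KO values lay inside the WT range. The female difference was -0.01, with an interval of -0.37 to 0.35 (limma, Benjamini-Hochberg adjusted p = 0.978). Averaged over genotypes, *Cd36* was 0.23 log2 lower in females than in males (interval -0.44 to -0.02, limma, Benjamini-Hochberg adjusted p = 0.183).

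The genes of the 3 binding proteins are related in sequence and differed in level. Their coding sequences were aligned, because reads from similar stretches can be divided between genes and because the letters show how near these genes are. *Fabp3* and *Fabp4* were identical at 63.9% of 399 aligned bases, *Fabp4* and *Fabp5* at 60.9% of 399, and *Fabp3* and *Fabp5* at 56.0% of 402. The longest run of identical bases between any pair of them was 14, which is shorter than the 31 bases that the quantifier matches. The 60-base stretch with the most bases in common is printed 5′ to 3′, from the GENCODE release M21 transcripts, with the 37 bases that are identical in all 3 genes in capitals. It covers coding bases 55 to 114 of *Fabp3* and *Fabp4* and 61 to 120 of *Fabp5*.
Fabp3: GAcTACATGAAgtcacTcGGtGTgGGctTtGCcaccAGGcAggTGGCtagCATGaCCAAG
Fabp4: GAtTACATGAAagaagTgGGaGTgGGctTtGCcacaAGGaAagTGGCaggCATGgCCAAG
Fabp5: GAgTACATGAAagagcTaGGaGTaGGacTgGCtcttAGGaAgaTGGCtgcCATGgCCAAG

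Copies elsewhere in the annotation shared more. Of the 31-base words in the only *Fabp3* transcript, 37.3% also occur in other genes, 279 of them in the pseudogene *Fabp3-ps1*, which had a mean of 2.57 TPM. Of those in the coding *Fabp5* transcript, 33.1% are shared, 260 with *Gm6166*, which had a mean of 0.0667 TPM. *Fabp3* and *Fabp5* are therefore uncertain to the extent that reads were divided with these copies, whereas *Gpihbp1*, *Cd36* and *Slc27a2* shared no such word with another gene.

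*Fabp4* (ENSMUSG00000062515, chromosome 3) encodes the adipocyte fatty acid binding protein. In males, *Fabp4* stood at 6252, 8201, 6297 and 6589 TPM in WT and at 6563, 6522, 6263 and 6195 TPM in KO libraries, with the KO values close together and male KO 4 just below the lowest WT library. In females, *Fabp4* stood at 5932, 5553, 6024 and 4005 TPM in WT and at 7741, 5885, 5391 and 7833 TPM in KO libraries. A pair of female KO libraries lay above all WT libraries and the other pair lay among them. The log2 differences were -0.09 (interval -0.33 to 0.15) in males and 0.32 (interval -0.12 to 0.76) in females (limma, Benjamini-Hochberg adjusted p = 0.656 and 0.405). Without female WT 4 the female difference was 0.18.

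*Fabp3* (ENSMUSG00000028773, chromosome 4) encodes the heart-type protein, which cardiac and oxidative skeletal muscle as well as BAT express. In males, *Fabp3* stood at 1417, 1794, 1391 and 1474 TPM in WT and at 1661, 1083, 1203 and 1317 TPM in KO libraries, and 3 of the 4 KO libraries were below all WT libraries. In females, *Fabp3* stood at 1145, 909, 1334 and 717 TPM in WT and at 1478, 1268, 932 and 1458 TPM in KO libraries, with a pair of KO libraries above all WT libraries. The log2 differences were -0.22 (interval -0.56 to 0.12) and 0.34 (interval -0.19 to 0.87), neither of them past the threshold (limma, Benjamini-Hochberg adjusted p = 0.433 and 0.452). Without female WT 4 the female difference fell to 0.18. With the group means taken off, Spearman's rho of *Fabp3* with the summed skeletal muscle markers was -0.02 over 16 libraries and with the summed brown adipocyte markers 0.76.

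*Fabp5* (ENSMUSG00000027533, chromosome 3) encodes the epidermal-type protein, which endothelial cells and macrophages express alongside adipocytes. In males, *Fabp5* stood at 43.9, 70.0, 54.1 and 49.8 TPM in WT and at 43.5, 104.7, 78.1 and 90.7 TPM in KO libraries. In 3 of the 4 male KO libraries it was above all WT libraries, and in male KO 1 it was below them. In females, *Fabp5* stood at 43.1, 49.2, 46.7 and 35.0 TPM in WT and at 70.7, 48.8, 50.3 and 74.3 TPM in KO libraries, with only female KO 2 inside the WT range. The log2 differences were 0.49 ± 0.27 (interval -0.12 to 1.09) in males and 0.47 ± 0.19 (interval 0.05 to 0.89) in females (limma, Benjamini-Hochberg adjusted p = 0.337 and 0.267). The difference between the sexes was -0.02, with an interval of -0.74 to 0.71. The male value of *Fabp5* was 0.75 without male KO 1 and 0.33 without male KO 2, and 0.32 under median-of-ratios scaling.

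For the mean effect over both sexes, *Fabp5* was 0.48 log2 higher in KO mice (limma, Benjamini-Hochberg adjusted p = 0.112), and without male KO 1 it was 0.61 higher and passed (limma, Benjamini-Hochberg adjusted p = 0.0432). Within a prefix the difference was 0.80 in males (prefix 9, 2 WT and 3 KO libraries). In females it was 0.71 (prefix 10, 1 WT and 1 KO) and 0.22 (prefix 8b, 3 WT and 1 KO), each with 1 KO library. The macrophage markers moved beside *Fabp5* in males. All 12 tested there had a higher estimate in KO mice, with a median log2 difference of 1.01 and 0 past the adjusted threshold. For the mean effect over both sexes, 4 of the 11 tested passed, all higher, where 2.58% of all genes were called higher. The summed TPM of the macrophage markers ran from 51.7 to 100.2 in male WT and from 131 to 190 in male KO libraries, without overlap. In females their sum was 61.0 to 129 TPM in WT and 85.1 to 128 TPM in KO libraries. The ratio of *Fabp5* to that sum was 0.73 ± 0.16 in male WT and 0.48 ± 0.10 in male KO, and 0.52 ± 0.11 in female WT and 0.58 ± 0.04 in female KO mice (SD, n = 4). Spearman's rho of *Fabp5* with the macrophage sum was 0.74 with the group means taken off. It was 0.67 for *Fabp4*, 0.64 for *Lpl* and *Cd36*, and from 0.34 to 0.60 for the rest of the genes described here. The ratio of *Fabp5* to the endothelial sum, whose markers had higher estimates in KO mice of both sexes, was 0.14 ± 0.02 in male WT, 0.16 ± 0.05 in male KO, 0.13 ± 0.04 in female WT and 0.10 ± 0.02 in female KO mice (SD, n = 4). The part of macrophage or endothelial content in the level of *Fabp5* was not tested beyond these values.

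*Slc27a2* (ENSMUSG00000027359, chromosome 2) and *Slc27a1* (ENSMUSG00000031808, chromosome 8) encode fatty acid transport proteins that also activate fatty acids to acyl-CoA. In males, *Slc27a2* stood at 74.1, 78.8, 46.3 and 54.5 TPM in WT and at 38.8, 31.7, 31.7 and 39.6 TPM in KO libraries. Every male KO library was below every male WT library, with means of 63.4 ± 15.5 and 35.5 ± 4.32 TPM (SD, n = 4). The log2 difference was -0.80 ± 0.18, with an interval of -1.21 to -0.39, and it missed the adjusted threshold (limma, Benjamini-Hochberg adjusted p = 0.160). The high pair of WT libraries carried the prefix 5 in their library name, which no male KO library did. Within the prefix 9, which held 2 male WT and 3 male KO libraries, the difference was -0.55. The part of the prefix in the result was not tested further.

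In females, *Slc27a2* stood at 140.3, 37.1, 78.5 and 38.7 TPM in WT and at 131.5, 96.2, 49.9 and 155.1 TPM in KO libraries. The values spread widely in both groups and overlapped, and the log2 difference was 0.65 ± 0.48 (interval -0.43 to 1.74, limma, Benjamini-Hochberg adjusted p = 0.476). Both females with the prefix 10 were high, WT 1 at 140.3 and KO 1 at 131.5 TPM. The log2 difference within that prefix was -0.09, and within the prefix 8b (3 WT and 1 KO library) it was 0.04. The KO effect in females exceeded that in males by 1.46 ± 0.56 log2 (interval 0.27 to 2.64), which did not pass (limma, Benjamini-Hochberg adjusted p = 0.272). With the prefix as a covariate the difference was 0.75 (adjusted p = 0.493).

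In males, *Slc27a1* stood at 85.0, 94.3, 62.0 and 80.3 TPM in WT and at 77.5, 76.3, 70.9 and 73.7 TPM in KO libraries, all of the latter inside the WT range. In females, *Slc27a1* stood at 124.2, 69.2, 94.6 and 86.1 TPM in WT and at 195.9, 121.4, 79.9 and 183.9 TPM in KO libraries. A pair of KO libraries was above all female WT libraries, and the female log2 difference was 0.58 ± 0.30 (interval -0.10 to 1.26), beside -0.09 (interval -0.39 to 0.21) in males (limma, Benjamini-Hochberg adjusted p = 0.347 and 0.711). The TPM of *Slc27a1* were spread over 9 transcripts, of which 4 annotated as protein coding took 52.5% and the retained-intron transcript Slc27a1-202 took 26.6 ± 5.00%. Slc27a1-202 averaged 22.3 ± 4.07 TPM in female WT and 48.0 ± 23.8 TPM in female KO libraries (SD, n = 4). Its mean share was 24.1% and 31.9% there, and 27.4% in male WT and 22.9% in male KO libraries. The part of this transcript in the female difference of the gene was not tested.

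The levels of both transporters varied together from library to library. With the group means taken off, Spearman's rho between *Slc27a1* and *Slc27a2* was 0.91 over the 16 libraries, the highest of the 45 pairs among the 10 genes, whose median was 0.46. The libraries share their tissue and their scaling to a fixed sum, and 42 of the 45 values were above 0. Next came *Fabp3* with *Slc27a2* at 0.80 and *Lpl* with *Slc27a2* at 0.78, while *Cd36* stood near 0 with *Slc27a1*, at -0.02, and with *Lmf1*, at -0.11. Both transporters also followed the summed brown adipocyte markers, with rho of 0.74 and 0.77. This was not particular to them. That rho was 0.81 for *Fabp4*, 0.77 for *Lmf1*, 0.76 for *Fabp3*, 0.73 for *Gpihbp1* and 0.62 for *Lpl*. For *Fabp5*, *Angptl4* and *Cd36* it was 0.41, 0.29 and 0.13.

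**Figure D5:**
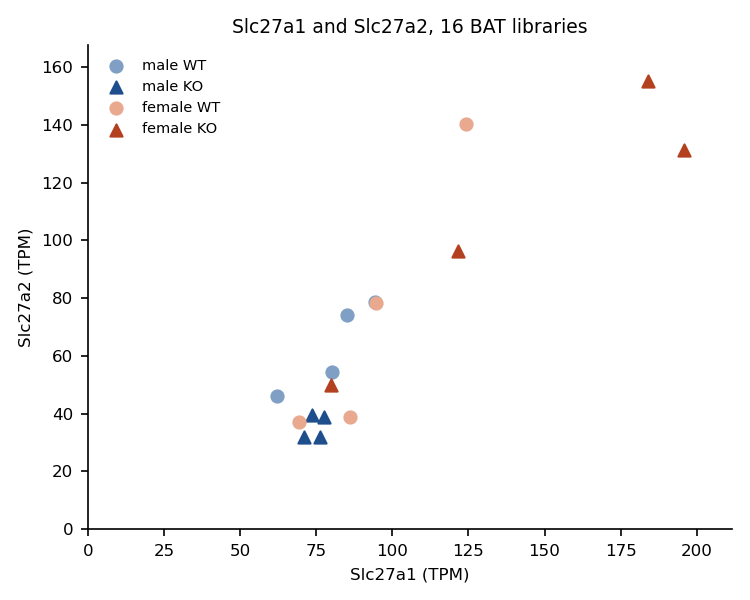
*Slc27a2* (vertical axis, TPM) against *Slc27a1* (horizontal axis, TPM) in 16 BAT libraries. Circles are WT and triangles KO mice; the 4 male KO libraries lie together at 31.7 to 39.6 TPM of *Slc27a2*, and female libraries reach from 37.1 to 155.1 TPM.

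Promoter windows from RefSeq (GRCm38.p6) were on hand for 5 of the 10 genes, *Slc27a2*, *Fabp3*, *Cd36*, *Slc27a1* (3 windows) and *Lmf1*. Each ran from 250 bases before to 50 bases after an annotated start and was searched on both strands for the hexamer AGGTCA, to which many nuclear receptors bind, and, with up to 2 mismatches, for a direct repeat of that hexamer with 1 base between the copies, the tandem known for PPAR and RXR. Of the 7 windows, those of *Slc27a2* and *Cd36* held the hexamer, as did 16.3% of 32851 promoters, and only that of *Cd36* held the tandem, as did 3.86%. A match is a description of the letters and not a binding site. The 250 bases before the start of these 2 genes are shown, 5′ to 3′ on the strand of the gene, because they are the windows with a match, which is in capitals and lies on the opposite strand.
Slc27a2, chr2:126552774-126553023, plus strand: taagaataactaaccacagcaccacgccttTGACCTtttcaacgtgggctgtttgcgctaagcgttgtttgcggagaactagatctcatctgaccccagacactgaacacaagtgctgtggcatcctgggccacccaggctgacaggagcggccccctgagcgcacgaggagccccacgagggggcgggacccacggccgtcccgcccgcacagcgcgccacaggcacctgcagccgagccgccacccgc
Cd36, chr5:17835897-17836146, minus strand: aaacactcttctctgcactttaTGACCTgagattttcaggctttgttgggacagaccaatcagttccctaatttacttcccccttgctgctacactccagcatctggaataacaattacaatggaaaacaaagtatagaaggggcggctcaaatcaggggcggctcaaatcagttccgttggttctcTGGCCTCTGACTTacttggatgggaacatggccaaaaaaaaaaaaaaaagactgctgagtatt
In *Slc27a2* the hexamer begins 220 bases before the start. In *Cd36* it begins 228 bases before the start and the tandem 63 bases before it. No *Slc27a1* window held either motif.

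Females and males were also compared over both genotypes. Of the 10 genes, 0 passed the adjusted threshold, against 4.48% of 12210 genes, and 4 had an unadjusted p under 0.05, against 21.3%. Over the whole table such genes were 384 higher and 2222 lower in females, and 995 and 1475 under median-of-ratios scaling. No gene was separated between all 8 females and all 8 males, against 0.0737% of genes higher and 0.295% lower in all females. *Slc27a1* was 0.54 ± 0.17 log2 higher in females (interval 0.17 to 0.91, limma, Benjamini-Hochberg adjusted p = 0.0887), with a median of 108.0 TPM in females and 76.9 TPM in males. This passed under median-of-ratios scaling (0.61, adjusted p = 0.0358), without transcripts of the mitochondrial genome (0.54, adjusted p = 0.0447) and without female KO 3 (0.67, adjusted p = 0.0182), each by limma with Benjamini-Hochberg adjustment. The sex difference of *Slc27a1* was 0.20 in WT and 0.87 in KO mice. *Slc27a2* was 0.75 ± 0.28 higher in females (limma, Benjamini-Hochberg adjusted p = 0.128), with 0.03 in WT and 1.48 in KO mice, and with the prefix as a covariate it was 1.38 higher and passed (limma, Benjamini-Hochberg adjusted p = 0.0360). Within the prefixes 10, 5 and 9 the difference of females from males was 1.79, 0.33 and 1.95 for *Slc27a2*. For *Slc27a1* it was 1.01, 0.44 and 1.34. These prefixes held 1 male and 2 females, 2 males and 1 female, and 5 males and 1 female, in that order. The only female of the prefixes 5 and 9 was a KO mouse and the only male of the prefix 10 was too. These values therefore mix sex with genotype. The prefix 8b held females only. *Fabp3* and *Cd36* were lower in females by 0.32 and 0.23 log2 (limma, Benjamini-Hochberg adjusted p = 0.207 and 0.183).

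Other genes of the same route were read as lists. Of 17 partners of the lipase (apolipoproteins, other ANGPTL proteins and lipases, proprotein convertases and heparan sulfate proteoglycans among them), 12 were tested; 0 passed the adjusted threshold in any of the 5 comparisons. Of 9 lipoprotein receptors, 8 were tested and 1 was lower for the mean KO effect, against 0.352% of all genes, namely *Vldlr*, the VLDL receptor that binds triglyceride-rich lipoproteins. *Vldlr* was at 23.7 to 30.3 TPM in male WT and 19.5 to 22.5 in male KO libraries, and at 22.4 to 28.3 in female WT and 14.9 to 20.02 in female KO libraries, without overlap in either sex, beside male and female backgrounds of 0.673% and 3.19% of genes in that direction. It fell by 0.38 log2 (limma, Benjamini-Hochberg adjusted p = 0.0313). The call held in 9 of the 16 fits that left out 1 library and in 6 of 9 other settings, with differences of -0.51 to -0.34 and an adjusted p of up to 0.0992 in all of them.

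Of 13 nuclear regulators, all tested, 1 was lower, *Ppara*, which encodes the fatty acid receptor PPARα, against 0.352% of all genes. *Ppara* averaged 49.2 ± 11.6 TPM in male WT and 37.3 ± 7.07 in male KO, and 55.1 ± 13.4 in female WT and 27.96 ± 4.93 in female KO mice (SD, n = 4), and it fell by 0.67 log2 (limma, Benjamini-Hochberg adjusted p = 0.0313). Of 10 genes of endothelial fatty acid handling, all tested, 1 was higher, *Meox2*, a transcription factor of capillary endothelium, by 0.52 log2 (limma, Benjamini-Hochberg adjusted p = 0.0389), against 2.58% of all genes. A higher estimate in KO mice was found for 9 of the 10, with a median of 0.45 log2, beside a median of 0.55 over the 13 endothelial markers, and the part of endothelial content was not tested. Leaving out 1 library kept the call of *Ppara* in 8 of 16 fits and that of *Meox2* in 6 of 16, with adjusted p of up to 0.0735 and 0.0889. Under median-of-ratios scaling *Ppara* passed (limma, Benjamini-Hochberg adjusted p = 0.00742) and *Meox2* did not (adjusted p = 0.0575). *Ppara* missed the threshold with no minimum TPM (adjusted p = 0.0840) and with the prefix covariate (adjusted p = 0.0598), and *Meox2* missed it in those fits (adjusted p = 0.0965 and 0.201) and without mitochondrial transcripts (adjusted p = 0.0682), all by limma with Benjamini-Hochberg adjustment. Of 20 other genes of fatty acid transport and binding (12 tested) and 10 acyl-CoA synthetases (9 tested), 0 passed for any KO comparison. In males all 12 of the transport and binding genes had a higher estimate in KO mice, with a median of 0.31 log2 beside 0.16 over all genes. Of these, 8 had an unadjusted p under 0.05, all higher, against 17.7% of all genes. The share over all genes falls under median-of-ratios scaling, as given for the male comparison. The 12 genes were not recounted under that scaling, so it is not known whether their count falls as well. In females 7 of those 12 had a higher estimate, with a median of 0.03 beside 0.10. Between the sexes, *Cav2*, a caveolin, was 0.42 log2 lower and *Acsm5*, a medium-chain acyl-CoA synthetase, 0.58 log2 higher in females (limma, Benjamini-Hochberg adjusted p = 0.0330 and 0.0358), against 3.9% of all genes lower and 0.581% higher. These calls held in 6 and 7 of the 16 fits that left out 1 library. The level of *Acsm5* was near the minimum of 1 TPM, with a mean of 1.72 TPM over the 16 libraries. Its difference was 0.47 log2 with a pseudocount of 1 and 0.73 with a pseudocount of 0.1. With a minimum of 5 TPM it was not tested. *Cav2* missed the threshold under median-of-ratios scaling (adjusted p = 0.109), without mitochondrial transcripts (adjusted p = 0.101), with no minimum (adjusted p = 0.0598) and with the prefix covariate (adjusted p = 0.289), and *Acsm5* with no minimum (adjusted p = 0.0753) and with the prefix covariate (adjusted p = 0.120), all by limma with Benjamini-Hochberg adjustment.

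The genes whose levels followed each member most closely were found from Spearman's rho over the 16 libraries with the group means taken off, among 12209 genes, and are given as a description. *Gpihbp1* was nearest to *Fam50a* (0.98) and *Dpp7* (0.96), *Lpl* to *Pak1ip1* and *Bnip3* (both 0.91), *Lmf1* to *Kat2a* (0.97) and *Angptl4* to *Cryzl2* (0.91). *Cd36* was nearest to *Mid2* (0.90) and to *Cat*, which encodes catalase (0.89), *Fabp3* to *Dhrs13* (0.92), and *Fabp4* to *Tpt1* (0.99) and the ribosomal protein genes *Rpl32* (0.97) and *Rpl39* (0.96). *Fabp5* was nearest to *Meox2* (0.87), *Slc27a1* to *Sctr* (0.97) and *Slc27a2* to *Pde3a* and *Sgk2* (both 0.96). With 16 libraries and this many genes, high values are common.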

How the data were processed

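Bulk RNA-seq of BAT gave 16 libraries from stranded mRNA preparations. The authors quantified reads with kallisto (0.46.2, per the submitters' notes, which also name GRCm39) and deposited TPM per transcript. Transcript identifiers were matched without version numbers to GENCODE M21 (GRCm38): 135051 of 137438 matched, and TPM were summed per gene symbol, so no gene coordinates are given. Groups and replicate numbers came from the labels, which give them as separate samples and no more, so p-values measure the spread between these samples. Genes with a mean of at least 1 TPM were tested on log2(TPM + 0.5) with limma 3.58.1 in R 4.3.3 (lmFit, eBayes with trend, two-sided, Benjamini-Hochberg over all genes tested, threshold 0.05), within each sex and, for contrasts that need both sexes, over all libraries. The authors' own test, DESeq2, needs counts and was not run. Fold changes on this scale understate those of low genes. Intervals are 95%. The fit was checked on simulated data in which each gene varied independently and no library was shifted as a whole. That check cannot show how the fit behaves where many genes move together. Coding sequences were aligned with MAFFT 7.526. Alternatives were pseudocounts of 1 and 0.1, no minimum and a minimum of 5 TPM, median-of-ratios scaling, scaling without mitochondrial transcripts, no trend, a replicate block, the library prefix as a covariate, 1 fit for all libraries, and leaving out each library. All 10 genes are named throughout, and other list genes by adjusted p. The 10 genes, the pathway lists and the marker lists were chosen with earlier results of these data known.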

Additional observations from a re-analysis of the deposited data

How the results depend on the processing

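The 10 genes gave 50 differences over the 5 comparisons, and these were recomputed 1110 times. Of the recomputed values, 1055 kept their direction and their side of the threshold, 10 came to pass it (given beside *Gpihbp1*, *Fabp5*, *Slc27a1* and *Slc27a2*) and 45 changed sign. None of those 45 values passed the threshold (smallest limma adjusted p with the Benjamini-Hochberg method 0.493), and the cause was not tested. With the prefix covariate the log2 difference became 0.060 for *Slc27a1* in males, -0.0019 for *Lpl* and -0.010 for *Slc27a2* in females, -0.019 for *Lmf1* between the sexes' KO effects, -0.087 for *Lpl* and -0.020 for *Fabp3* in the mean KO effect, and 0.10 for *Gpihbp1* between females and males. For the mean KO effect it became -0.037 for *Lpl*, -0.079 for *Lmf1*, -0.045 for *Cd36*, -0.073 for *Fabp3* and -0.019 for *Fabp4* under median-of-ratios scaling, and -0.034, -0.076, -0.042, -0.070 and -0.016 in that order without mitochondrial transcripts. Median-of-ratios scaling also gave 0.053 for *Fabp5* between the sexes' KO effects and 0.027 for *Gpihbp1* between females and males, and scaling without mitochondrial transcripts gave -0.030 for *Lmf1* in females. With 1 library left out in turn, the values ran from -0.10 to 0.077 for *Lmf1*, -0.31 to 0.022 for *Angptl4* and -0.13 to 0.0013 for *Fabp4* in males, from -0.11 to 0.056 for *Cd36* in females, and from -0.31 to 0.028 for *Angptl4* and -0.28 to 0.14 for *Fabp5* between the sexes' KO effects. In the mean KO effect they ran from -0.022 to 0.20 for *Lpl*, -0.019 to 0.13 for *Fabp3* and -0.20 to 0.12 for *Slc27a2*, and between females and males from -0.086 to 0.14 for *Lpl* and -0.16 to 0.031 for *Gpihbp1*.

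Over all genes, the limma fits put 1 gene past the adjusted threshold in males, 0 in females, 0 for the difference between the sexes' KO effects, 358 for the mean KO effect and 547 between the sexes, with 2280, 2075, 1735, 2929 and 2606 at an unadjusted p under 0.05. In males the count was 2 with a pseudocount of 0.1, 0 with no minimum, 3 under median-of-ratios scaling, 12 without mitochondrial transcripts, 6 with the prefix covariate and 38 in 1 fit of all libraries. In females it was 8 with the prefix covariate and 5 in 1 fit of all libraries. The contrast of the KO effects gave 1 without a trend. For the mean KO effect it was 54 with no minimum, 177 with a minimum of 5 TPM, 543 without mitochondrial transcripts and 12 with the prefix covariate, and between the sexes 262 with no minimum and 93 with the prefix covariate. Leaving out 1 library gave 0 to 5 in males, 0 to 9 in females, 0 to 3 for the contrast of KO effects, 31 (without male KO 3) to 1055 (without male WT 2) for the mean KO effect, and 194 (without male KO 2) to 1020 (without female KO 2) between the sexes.

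With the replicate number as a block the counts were 0 in males, 1 in females and 60 for the mean KO effect, and the calls of *Vldlr* (adjusted p = 0.0703), *Ppara* (0.0622), *Meox2* (0.0816), *Cav2* (0.0578) and *Acsm5* (0.0543) were lost, by limma with Benjamini-Hochberg adjustment. Deviations of same-numbered libraries correlated at -0.08 to 0.35 in males and -0.12 to 0.15 in females. Libraries with different numbers were not correlated for reference, so these values cannot tell whether the numbers pair the samples. Depth was unknown, and 4 mice a group and the spread of *Slc27a2* and *Lpl* in females limited what could be detected.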
